A study of Mus musculus with 12 samples.

Results

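H3K4me3 and H3K27me3 were compared within wild-type (WT) hematopoietic progenitors, using 4 of the 12 libraries of the series. These were the H3K4me3 and the H3K27me3 peak list of each of 2 WT mice, named WT_407 and WT_409 after the numbers in their labels, which were read as mice. The members were taken from the labels alone, as the WT group of both antibodies, and no measured value entered the choice. The cells were cKit+ bone marrow cells of C57BL/6 mice, sorted 4 days after poly(I:C), and the series design gives them as lineage-negative. The WT mice were littermates of Mx1Cre+ Ints11 flox mice, and the labels do not give which of these alleles the WT mice carry. The matching H3K4me3 and H3K27me3 lists of 2 Ints11 conditional knockout (KO) mice, Mx1Cre+ with floxed Ints11 and also sorted 4 days after poly(I:C), are used for a single comparison. Poly(I:C) is an interferon inducer that switches on the Mx1 promoter in many cell types. The sorted fraction is a mixture of stem cells and of progenitors of several lineages.

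H3K4me3 is written by SET1 and MLL methyltransferase complexes at the start sites of transcribed genes and at CpG islands. H3K27me3 is written by Polycomb repressive complex 2 (PRC2), spreads into broad domains, and is bound by Polycomb repressive complex 1 (PRC1). Promoters with both marks are called bivalent and were described first at developmental genes of embryonic stem cells. In blood progenitors both marks have been described at regulators of lineage choice. In a bulk population, 2 marks on the same bases of the same cell or allele cannot be told apart from marks that lie in different cells or on different alleles.

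Promoter sequences of genes described below show the range of DNA that underlies the classes. They come from RefSeq (GRCm38.p6, the coordinates of mm10), run from 250 bases before to 50 bases after a listed start, and have each CpG in capitals. Gata2 and Rara carried both marks, Kit and Zbtb7b H3K4me3 alone, Pax6 H3K27me3 alone and Cd3e neither. Rara, Zbtb7b and Pax6 headed their classes by covered length among genes with a listed start. Cd3e was chosen after its values were seen.
Gata2 (chr6:88193641-88193940, plus strand): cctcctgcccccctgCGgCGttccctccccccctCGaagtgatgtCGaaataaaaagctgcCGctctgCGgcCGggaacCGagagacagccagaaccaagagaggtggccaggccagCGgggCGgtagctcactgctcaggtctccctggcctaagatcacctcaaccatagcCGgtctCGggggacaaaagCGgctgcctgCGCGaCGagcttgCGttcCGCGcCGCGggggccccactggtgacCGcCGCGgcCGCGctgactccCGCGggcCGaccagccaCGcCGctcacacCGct
Rara (chr11:98937446-98937745, plus strand): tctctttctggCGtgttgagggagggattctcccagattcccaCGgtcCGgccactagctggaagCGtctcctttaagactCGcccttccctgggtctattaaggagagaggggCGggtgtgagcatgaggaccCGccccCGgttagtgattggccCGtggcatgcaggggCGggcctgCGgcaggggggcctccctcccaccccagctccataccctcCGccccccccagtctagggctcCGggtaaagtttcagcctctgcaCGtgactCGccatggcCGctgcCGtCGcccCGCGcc
Kit (chr5:75574737-75575036, plus strand): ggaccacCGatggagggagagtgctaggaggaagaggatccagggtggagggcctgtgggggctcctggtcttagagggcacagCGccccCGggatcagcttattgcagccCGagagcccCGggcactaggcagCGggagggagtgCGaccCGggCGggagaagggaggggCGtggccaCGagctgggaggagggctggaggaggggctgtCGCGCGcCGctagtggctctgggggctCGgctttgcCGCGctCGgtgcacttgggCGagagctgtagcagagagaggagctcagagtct
Zbtb7b (chr3:89393329-89393628, minus strand): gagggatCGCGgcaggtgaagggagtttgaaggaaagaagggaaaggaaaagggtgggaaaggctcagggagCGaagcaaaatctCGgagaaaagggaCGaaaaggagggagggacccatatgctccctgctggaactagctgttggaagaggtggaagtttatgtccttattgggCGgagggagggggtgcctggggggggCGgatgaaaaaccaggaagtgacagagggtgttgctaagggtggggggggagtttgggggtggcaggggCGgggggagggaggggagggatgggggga
Pax6 (chr2:105668646-105668945, plus strand): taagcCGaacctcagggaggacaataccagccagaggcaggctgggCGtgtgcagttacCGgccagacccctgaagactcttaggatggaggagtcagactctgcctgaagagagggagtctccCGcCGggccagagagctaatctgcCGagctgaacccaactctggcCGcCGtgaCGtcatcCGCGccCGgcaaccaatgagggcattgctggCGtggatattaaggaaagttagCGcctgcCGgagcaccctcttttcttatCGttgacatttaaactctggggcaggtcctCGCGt
Cd3e (chr9:45009562-45009861, minus strand): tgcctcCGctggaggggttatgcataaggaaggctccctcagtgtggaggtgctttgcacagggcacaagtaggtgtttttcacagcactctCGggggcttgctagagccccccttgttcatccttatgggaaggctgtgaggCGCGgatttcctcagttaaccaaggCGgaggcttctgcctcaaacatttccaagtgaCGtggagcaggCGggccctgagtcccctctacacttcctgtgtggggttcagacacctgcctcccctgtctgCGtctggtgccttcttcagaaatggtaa
These 300 bases held 32 CpG in Gata2, 20 in Rara, 20 in Kit, 8 in Zbtb7b, 18 in Pax6 and 8 in Cd3e. In Gata2, peaks of H3K27me3 covered all 300 bases in both mice, and those of H3K4me3 covered 300 bases in WT_407 and 294 in WT_409. In Rara all 300 bases lay under peaks of both marks in both mice. In Kit and Zbtb7b all 300 lay under H3K4me3 and none under H3K27me3, and in Pax6 the reverse held. Cd3e had no listed peak on these bases in any of the 4 libraries.

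H3K4me3 formed many short, strong peaks and H3K27me3 fewer, wider and weaker ones. The H3K4me3 lists held 25145 peaks in WT_407 and 26279 in WT_409, and the H3K27me3 lists 11930 and 9838. H3K4me3 peaks covered 37.0 and 38.6 Mb, and H3K27me3 peaks 34.5 and 31.5 Mb. The mean difference of 4.76 Mb became 10.7 Mb when only peaks with a deposited fold of at least 10 were kept. The median H3K4me3 peak was 1145 and 1124 bp wide, and the median H3K27me3 peak 1891.5 and 2275 bp. Peaks of 10 kb or more numbered 10 and 21 for H3K4me3 and 378 and 331 for H3K27me3. The deposited fold over background, the authors' own value at each summit, had a median of 16.7 and 16.6 for H3K4me3 and of 7.09 and 7.95 for H3K27me3. For each of these 5 quantities the marks did not overlap. A two-sided exact permutation test of 2 against 2 libraries gave its smallest possible value for each, p = 0.33 (n = 2 each).

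The lists held only peaks with a deposited fold above 5, and the peak names skip numbers. The lists held 67.1% and 76.9% of the numbers for H3K4me3 and 24.8% and 29.8% for H3K27me3. A fold of 5 took 15.2 and 13.7 reads at a summit for H3K4me3 and 19.5 and 19.8 for H3K27me3, as recovered from the deposited fold and p-value. A gene without a listed peak can therefore hold a weaker signal of that mark. Marker genes of the sorted fraction carried H3K4me3: 10 of 12 stem and progenitor markers in WT_407 and 11 in WT_409, and 6 of 6 granulocyte and monocyte markers in both. Over all 21887 coding genes, 13180 and 12992 had H3K4me3 within 2 kb, and 4761 and 4797 had H3K27me3. Of the 12 stem and progenitor markers, 6 and 7 also carried H3K27me3, with a summed length of 45496 and 52877 bp. None of the granulocyte and monocyte markers did. H3K4me3 lay at 2 of 6 T and NK markers and at 0 of 3 mast cell markers in each mouse. It lay at 4 and 3 of 6 stromal and endothelial markers, with a summed length of 3553 and 3244 bp, against 58640 and 62240 bp at the stem and progenitor markers. By number, the stromal and endothelial markers lay near the share over all genes. H3K4me3 lay at 1 and 4 of 5 B markers and at 3 and 6 of 6 erythroid markers in WT_407 and WT_409, so that the mice differed by 3 markers in each of these sets.

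The bases shared by both marks were a small part of each. In WT_407 both marks covered 3.91 Mb, which was 10.6% of the H3K4me3 bases and 11.3% of the H3K27me3 bases. In WT_409 the shared length was 3.97 Mb, or 10.3% and 12.6%. The Jaccard index, the shared length over the total length, was 0.0578 and 0.0601 between marks. Between mice it was 0.790 for H3K4me3 and 0.723 for H3K27me3. Pairing the H3K4me3 of WT_407 with the H3K27me3 of WT_409 shared 4.46 Mb (12.1% of H3K4me3 and 14.1% of H3K27me3), and the opposite pairing 3.45 Mb (8.94% of H3K4me3). The pairings within a mouse lay between these 2 values. The shares depended on the strength required. The mean over both mice was 10.4% of H3K4me3 bases and 11.96% of H3K27me3 bases. With the strongest 9838 peaks of every list it was 3.88% and 2.98%, and with a deposited fold of at least 10 it was 6.00% and 8.97%.

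**Figure D1:**
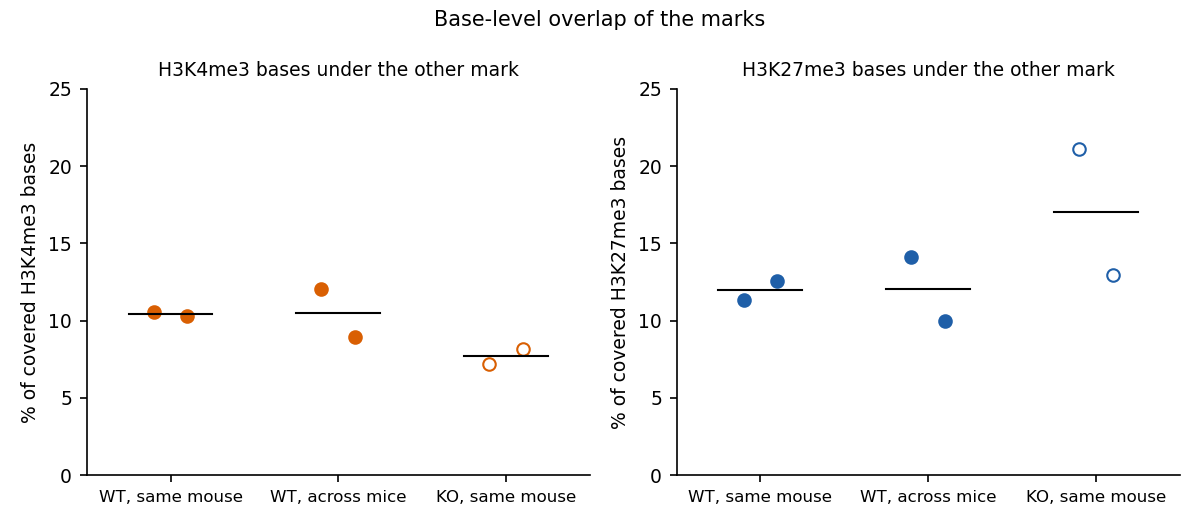
Share of the covered bases of H3K4me3 (left, %) and of H3K27me3 (right, %) that also lay under the other mark. Each point is 1 pairing of libraries (filled WT, open KO) and each line the mean; WT pairings ran from 8.94% to 12.1% of H3K4me3 bases.

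Bases covered by both marks in both mice formed 3448 segments with a total of 2.99 Mb, a median of 762.5 bp and a maximum of 4956 bp. They made up 8.96% of the bases with H3K4me3 in both mice and 10.8% of those with H3K27me3 in both mice. The overlap was concentrated at start sites. Within 2 kb of a coding start, 21.1% and 21.3% of H3K27me3 bases also lay under H3K4me3 in WT_407 and WT_409, against 4.68% and 5.51% elsewhere. For H3K4me3 the shares under H3K27me3 were 12.2% and 12.4% near starts and 7.52% and 6.71% elsewhere. In the KO mice, 7.21% and 8.17% of H3K4me3 bases lay under H3K27me3, lower than in either WT mouse. Of their H3K27me3 bases, 21.1% and 13.0% lay under H3K4me3, higher than in either WT mouse. The exact permutation test gave p = 0.33 for both shares (n = 2 each, the smallest possible). The 13.0% lay below the 14.1% of a WT pairing across mice given above. For H3K27me3 bases the mean KO minus WT difference was 5.09 points, and 0.998 points without the KO mouse at 21.1%. The H3K27me3 lists of the KO mice covered 15.2 and 23.1 Mb, less than in WT, and the part of this in the shares was not tested.

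Where the marks met, a short H3K4me3 peak lay inside a wider H3K27me3 peak. Of all H3K4me3 peaks, 3957 (15.7%) in WT_407 and 3987 (15.2%) in WT_409 overlapped an H3K27me3 peak of the same mouse. Of these, 71.3% and 72.4% lay wholly inside H3K27me3, 22.7% and 21.6% crossed an edge, and 2.96% and 3.56% contained an H3K27me3 peak. Of all H3K27me3 peaks, 31.4% and 37.5% overlapped H3K4me3. These had a median width of 3351.5 and 3316 bp, against 1423 and 1726 bp for H3K27me3 peaks without H3K4me3, and a median fold of 11.0 and 11.6, against 6.12 and 6.63. H3K4me3 peaks that overlapped H3K27me3 had a lower median fold than those that did not, 13.0 and 14.3 against 18.6 and 17.6. The median distance from an H3K4me3 summit to the nearest H3K27me3 summit was 475 and 464 bp in overlapping peaks. These are descriptions of peaks within a library, with no test.

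Merging the peaks of all 4 libraries gave 35747 regions. A region was called both when all 4 libraries covered it, exclusive when both libraries of a mark did and neither of the other, and unsettled otherwise. There were 3029 regions with both marks (8.47%), 17926 with H3K4me3 only (50.1%), 3826 with H3K27me3 only (10.7%) and 10966 unsettled (30.7%). The regions with both marks were the widest, with a median of 4413 bp against 1578.5 bp for H3K4me3 only and 2962 bp for H3K27me3 only, in part because merging joins 2 marks. In 2975 of the 3029 the 4 libraries shared bases. When a mark had to cover at least 50% of a region, 327 regions had both marks. Among regions with both marks, 81.0% lay within 2 kb of a coding start, against 52.5% for H3K4me3 only, 42.0% for H3K27me3 only and 17.2% for the unsettled. Unsettled regions were short, with a median of 563 bp.

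The widest regions with both marks lay almost wholly under H3K27me3, with shorter H3K4me3 that differed in extent between them. The widest, 118490 bp on chromosome 15, held Hoxc4 to Hoxc13, with H3K27me3 on 118289 and 118085 bp and H3K4me3 on 484 and 974 bp in WT_407 and WT_409. A Hoxd domain of 76127 bp had H3K4me3 on 2542 and 2111 bp. In a Hoxa domain of 53470 bp, from Hoxa3 to Hoxa13, H3K4me3 covered 16174 and 11287 bp and H3K27me3 53208 and 53470 bp. A domain of 48693 bp held Zic1 and Zic4, zinc-finger factors of the developing brain. The second widest, 93514 bp on chromosome 8, had H3K4me3 on 18224 and 13025 bp and H3K27me3 on 93180 and 93514 bp. It held no coding gene but 48 annotated ribosomal RNA genes, near-identical repeats whose reads cannot be placed on a single copy with certainty. The widest regions with H3K27me3 alone held Ttll6 and Hoxb13 (47399 bp), Gata4 (39663 bp), Hoxd3 and Hoxd4 (36249 bp), Tbx3 (35269 bp) and the imprinted Zdbf2 (35117 bp). The widest with H3K4me3 alone were narrower, 13442 bp at Irf2bp2, 12613 bp at Wfdc21, 12595 bp at Zbtb7b and 12143 bp at Tyrobp, an adaptor of myeloid and NK receptors.

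Genes were then sorted by the peaks within 2 kb of their listed start sites, or of either end of the span for the 4395 genes without a listed start, whose class can therefore come from a peak at the 3′ end. Of 21887 protein-coding genes, 2637 (12%) carried both marks in both mice. H3K4me3 alone was found at 9727 genes (44.4%), H3K27me3 alone at 1456 (6.65%), and neither mark in any library at 6826 (31.2%). The remaining 1241 (5.67%) were unsettled, because a mark was present in 1 mouse only. H3K27me3 alone was the rarest settled state in these lists as deposited. With a −log10 q of at least 10 it remained so, at 1564 genes against 2352 with both marks, but not in the next settings. At a deposited fold of at least 10, 1376 genes had H3K27me3 alone and 1007 both marks, and with the strongest 9838 peaks of each list 3547 and 654. Of the 12798 genes with H3K4me3 in both mice, 20.6% also carried H3K27me3, whereas of the 4439 genes with H3K27me3 in both mice, 59.4% also carried H3K4me3. At 2471 genes (11.3% of all), or 93.7% of those with both marks, the marks shared bases in both mice. Taken mouse by mouse, 3037 genes in WT_407 and 3023 in WT_409 had both marks.

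The count of genes with both marks depended on the fold or number of peaks required more than on the window. It was 2442 with a window of 1 kb and 3044 with 5 kb, against the 1007 and 654 above. With a −log10 q of at least 10 it was 2352. H3K4me3 was weaker and shorter at these genes than at those with H3K4me3 alone. Its median length within 5 kb was 1478 and 1397 bp in WT_407 and WT_409, against 2444 and 2475 bp. Coding genes with an H3K4me3 peak within 2 kb in a library were also ranked by the fold of their strongest such peak. The median percentile in this ranking was 17.7 and 15.9 at genes with both marks, against 61.2 and 60.6 with H3K4me3 alone. H3K27me3 had about the same length at genes with both marks, 4064 and 4242 bp, as at genes with H3K27me3 alone, 4473 and 3963.5 bp, and the order of the classes differed between the mice.

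**Figure D2:**
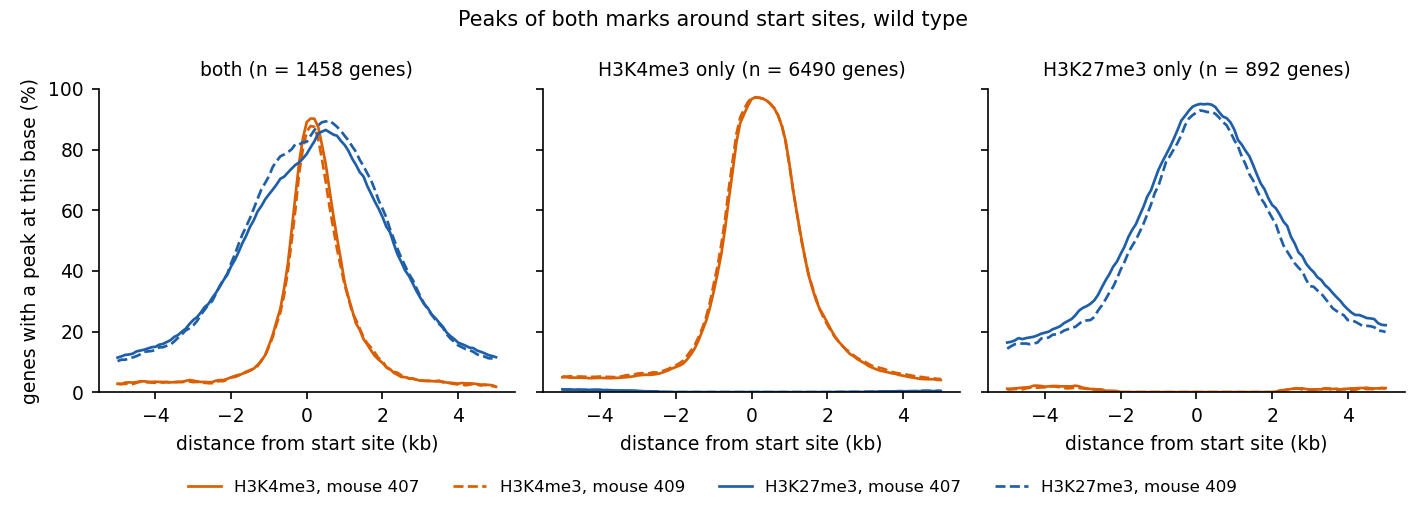
Share of genes (%) with a peak of H3K4me3 (orange) or H3K27me3 (blue) at each distance from the start site (kb, downstream to the right), for 1458 genes with both marks, 6490 with H3K4me3 only and 892 with H3K27me3 only; solid lines are WT_407, dashed lines WT_409. In genes with both marks the H3K4me3 curve is narrow and tops at 100 bp, and the H3K27me3 curve is broad and tops 500 to 600 bp downstream.

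The marks were placed differently around the start at genes with a single listed start. At genes with both marks, H3K4me3 covered the start itself in 89.1% and 85.9% of 1458 genes, and a base 1 kb downstream in 36.3% and 35.4%. At genes with H3K4me3 alone, these shares were 96.7% and 97.0% at the start and 75.2% and 74.8% at 1 kb downstream. H3K27me3 covered the start of 78.6% and 82.6% of the genes with both marks and was most frequent 500 and 600 bp downstream, at 86.5% and 89.5%. At the 892 genes with H3K27me3 alone it covered the start of 94.7% and 92.3% and was most frequent 100 bp downstream. Among the genes with both marks whose start lay under H3K4me3 in the same mouse (1299 in WT_407 and 1253 in WT_409), H3K27me3 covered 77.9% and 81.6% of the starts, and 86.8% and 89.6% of the bases 500 bp downstream. Among the 159 and 205 whose start did not, it covered 84.3% and 88.8% of the starts. The absence of the other mark within 2 kb in the exclusive classes follows from how they were defined.

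The classes differed in the CpG content of their promoters, a feature that the peaks did not use to sort them. The median observed over expected CpG of 300-base promoters was 0.749 at genes with both marks (n = 1458), 0.791 with H3K4me3 alone (n = 6490), 0.579 with H3K27me3 alone (n = 892) and 0.159 with neither (n = 5141), against 0.559 over all 14731. The median GC content was 65.7%, 60.3%, 61.0% and 45.0% in the same order. Among the 4932 promoters with a ratio of 0.75 or more, 74.9% had H3K4me3 alone, 14.7% both marks, 4.56% H3K27me3 alone and 0.912% neither. Among the 4374 promoters below 0.25, 84.1% had neither mark. H3K27me3 alone was most frequent in between, at 9.97% of promoters from 0.25 to 0.5 and 10.5% from 0.5 to 0.75. Pax6, whose printed start had a ratio of 0.698, lay in this range.

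**Figure D3:**
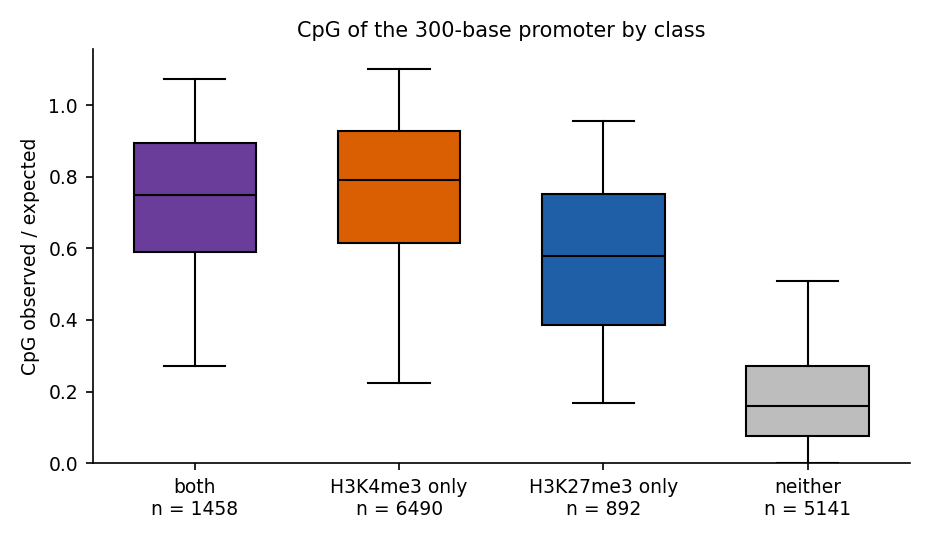
Observed over expected CpG in promoters of 300 bases (y axis) by class of the gene (x axis). Boxes span the 25th to 75th percentile with the median as a line, and whiskers run from the 5th to the 95th percentile; the class with neither mark (median 0.159) lies below the 3 marked classes.

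Short motifs were counted in the same promoters on both strands, as a description. GGGCGG, the core of the GC box bound by SP and KLF factors, was in 74.8% of promoters with both marks, 65.4% with H3K4me3 alone, 57.7% with H3K27me3 alone and 8.31% with neither, against 45.3% of all. The motif contains a CpG and so moves with CpG content. ACTTCCGG, a core of ETS-family sites, was in 10.4% of promoters with H3K4me3 alone, in 2.13% with both marks and in 0.561% with H3K27me3 alone, against 5.21% of all. TATAAA was in 27.3% of promoters with neither mark and in 6.87% to 7.61% of the 3 marked classes, against 14.3% of all.

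Transcription factors of stem and progenitor cells divided evenly between both marks and H3K4me3 alone. Of 26 genes, 12 carried both marks, 12 H3K4me3 alone, none H3K27me3 alone or neither, and 2 were unsettled, against 12%, 44.4%, 6.65% and 31.2% of all genes. Gata2, a zinc-finger factor needed for stem cell expansion, had H3K4me3 on 6872 and 6373 bp and H3K27me3 on 14371 and 14570 bp within 5 kb of its 2 listed starts in WT_407 and WT_409. Meis1, the cofactor of Hox proteins, had 7139 and 7003 bp of H3K4me3 and 8816 and 9809 bp of H3K27me3. Tal1, the bHLH factor of blood formation, had 4536 and 5537 bp of H3K4me3 and 7972 and 10799 bp of H3K27me3. Both marks were long at these genes, and H3K27me3 was the longer in both mice. The call of both marks did not hold for them under every strength: with the strongest 9838 peaks of each list Gata2 had H3K27me3 alone and Meis1 was unsettled, and at a fold of at least 10 Tal1 had H3K4me3 alone. Of the 26 factors, 8 had both marks at that fold and 4 with equal numbers of peaks. Erg, Mecom, Hlf, Gfi1b, Sox4, Mycn, Prdm16, Zfpm1 and the immediate early gene Egr1 were the others with both marks.

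Runx1, the factor that starts definitive blood formation, had no H3K27me3 within 5 kb and had 11520 and 11360 bp of H3K4me3, among the longest of all genes. Gfi1, a repressor of stem cell cycling, had 9041 and 9274 bp of H3K4me3 and no H3K27me3, and its paralog Gfi1b had 574 and 3374 bp beside 2273 and 1390 bp of H3K27me3. Lyl1, the paralog of Tal1, likewise had H3K4me3 alone, on 6973 and 7483 bp. Myc had H3K4me3 alone on 6294 and 6395 bp, while Mycn had 3459 and 5074 bp beside 7253 and 7652 bp of H3K27me3. The pairs of related factors named here thus fell in different classes in the lists as deposited. At a fold of at least 10 Tal1 had H3K4me3 alone, as given above. Myb, Fli1, Ikzf1, Etv6, Nfe2, Ldb1 and Hhex also had H3K4me3 alone. Lmo2 and Cbfa2t3 were unsettled.

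**Figure D4:**
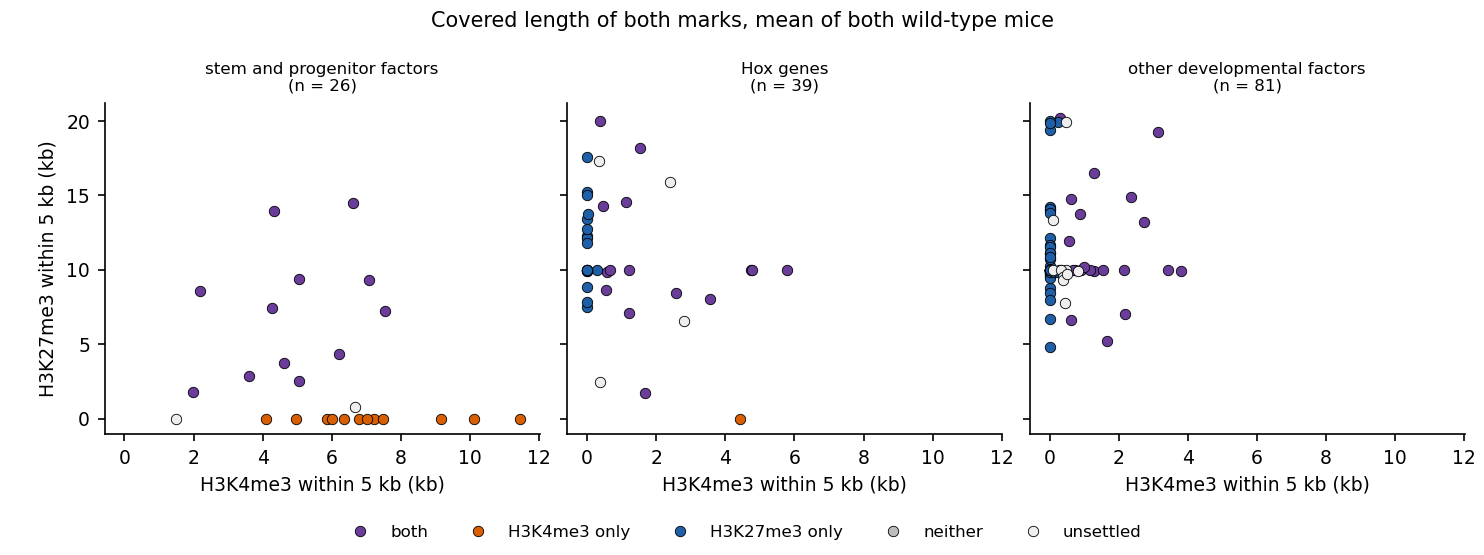
Length of H3K4me3 (x axis, kb) and of H3K27me3 (y axis, kb) within 5 kb of the starts of each gene, as the mean of both WT mice, for stem and progenitor factors, Hox genes and other developmental factors; each point is a gene, coloured by its class. A gene with 1 start tops out at 10 kb and genes with more starts or with 2 span ends reach further; most Hox and developmental genes lie at 5 kb or more of H3K27me3, and the 12 stem and progenitor factors with H3K4me3 alone lie along the lower edge.

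Of 25 factors that decide lineages, 12 carried both, 8 H3K4me3 alone, 2 H3K27me3 alone and 3 were unsettled, against 12%, 44.4%, 6.65% and 5.67% of all genes. With both marks there were 7 at a fold of at least 10, and 3 with equal numbers of peaks, where 12 had H3K27me3 alone. Myeloid factors included H3K4me3 alone at Spi1 (4935 and 8433 bp), Cebpb (5093 and 4243 bp) and Cebpe (8869 and 9589 bp), and both marks at Irf8, with 5985 and 5554 bp of H3K4me3 and 4796 and 5387 bp of H3K27me3. Cebpa, the factor of granulocyte commitment, had H3K4me3 on 5451 and 4903 bp and H3K27me3 in WT_409 only, on 916 bp. Several lymphoid factors had long H3K27me3. Gata3, Tcf7, Tbx21 and Eomes, factors of T and NK cells, each had both marks, and at Gata3 H3K27me3 covered 9878 and 10001 bp against 2371 and 2422 bp of H3K4me3. Bcl11b, which seals T-cell commitment, had H3K27me3 alone on 9445 and 9942 bp. Ebf1, a factor of early B cells, had H3K27me3 on 10544 and 8805 bp, with H3K4me3 on 302 bp in WT_407 and 5009 bp in WT_409. Pax5 had H3K27me3 on 10001 bp in both and H3K4me3 on 0 and 3869 bp. The H3K4me3 of both B factors was thus far longer in WT_409, the mouse with H3K4me3 at more B markers, and the part of B-lineage cells in it was not tested.

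Among receptors and surface proteins, 13 of 24 had H3K4me3 alone, 2 both marks, 2 neither and 7 were unsettled. In percent of the list these were 54.2%, 8.33%, 8.33% and 29.2%, against 44.4%, 12%, 31.2% and 5.67% of all genes, so the first pair lay near the background. Kit, the receptor by which the cells were sorted, had H3K4me3 on 4310 and 4643 bp and no H3K27me3. Cxcr4, the receptor for marrow retention, had 5564 and 6382 bp, and Csf3r, the G-CSF receptor, 4419 and 5326 bp, also without H3K27me3. Flt3, a receptor of multipotent progenitors, had both marks, with 2090 and 1410 bp of H3K4me3 and 4115 and 4082 bp of H3K27me3. Epor, the erythropoietin receptor, had 1403 and 2613 bp of H3K4me3 beside 5676 and 5041 bp of H3K27me3. Slamf1 had no listed peak within 5 kb in either mouse.

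Genes of differentiated blood cells fell apart by lineage. Of 20 granulocyte and monocyte genes, 17 had H3K4me3 alone, 1 both marks and 2 were unsettled, with a median H3K4me3 length of 4692 and 5542 bp against 1305 and 1288 bp over all genes. H3K4me3 alone was thus at 85.0% of the list and 44.4% of all genes, and with equal numbers of peaks at 9 of the 20. Granule genes had long H3K4me3 and no H3K27me3, as in Mpo (5569 and 5459 bp), Elane (6368 and 5625 bp) and Prtn3 (9035 and 8017 bp). The alarmin gene S100a8 had 4426 and 9142 bp. Cd14, the endotoxin co-receptor, was the granulocyte and monocyte gene with both marks.

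T and NK genes mostly had neither mark, at 15 of 20 (75.0%, against 31.2% of all genes), among them Cd3e, Cd3g, Cd8a, Zap70, Prf1 and Gzmb. Cd4 carried both marks, with 912 and 793 bp of H3K4me3 and 4468 and 3414 bp of H3K27me3. Mast cell and basophil genes had neither mark at 8 of 10 (80.0%), with Cpa3, Mcpt8 and Fcer1a at 0. The exceptions were Hdc, the histidine decarboxylase, with H3K4me3 alone, and Gata2 with both marks.

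Erythroid and B genes were the least settled lists. Of 22 erythroid and megakaryocyte genes, 14 were unsettled (5.67% of all genes were), and at 11 of the 14 H3K4me3 was present in WT_409 alone. With a fold of at least 10, 0 of the 22 were unsettled and 15 had neither mark. The globin genes Hbb-bs and Hba-a1 had no H3K4me3 in WT_407 and 1026 and 1380 bp in WT_409, and Hba-a1 had H3K27me3 in both mice, on 2331 and 1655 bp. Of 15 B genes, 7 were unsettled, and H3K4me3 was present in WT_409 alone at all 7. At a fold of at least 10, 6 were unsettled, and with equal numbers of peaks 0, with 14 of the 15 having neither mark. Igll1, of the surrogate light chain, had 0 and 3585 bp, and Dntt, the terminal transferase of early lymphocytes, 0 and 2976 bp. The fixed erythroid and B markers also carried H3K4me3 more often in this mouse, as given above, and their part in the result was not tested. In bulk cells, fewer cells with a mark and less of the mark in each cell cannot be told apart.

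The listed developmental factors lay under H3K27me3. These were 81 homeobox, forkhead, Sox, T-box, Pax and bHLH genes, a list chosen with earlier results known. Of the 81, 48 had H3K27me3 alone, 21 both marks, 12 were unsettled, and none had H3K4me3 alone or neither mark. Over all genes these shares were 6.65%, 12%, 5.67%, 44.4% and 31.2%. At a fold of at least 10, 68 had H3K27me3 alone, 9 both marks and 4 were unsettled. With equal numbers of peaks these counts were 80, 1 and 0. The median H3K27me3 length within 5 kb was 10001 bp in both mice, the whole window of a gene with 1 start, against 0 over all genes. Pax6, the eye and forebrain factor, had 19796 and 19877 bp over its 2 starts and no H3K4me3. Tbx3 had 20002 bp in both mice, all of the windows around both ends of its span, and Sox2, Olig2, Hand2 and Pax7 had H3K27me3 alone, on 9879 to 10001 bp. H3K27me3 lay at all 81 genes in both mice. Families taken whole by their names were more mixed. Of 44 Fox genes, 15 had both marks, 8 H3K27me3 alone, 8 H3K4me3 alone, 7 neither and 6 were unsettled. Of 19 Sox genes, 8 had H3K27me3 alone, 7 both, 2 neither and 2 were unsettled. Of 13 Tbx genes, 6 had H3K27me3 alone, 3 both, 1 H3K4me3 alone and 3 neither. The shares over all genes to set beside these families are those given above for the 81.

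H3K4me3 was shorter than H3K27me3 at the following factors of the list, though longer in some than the median of genes with both marks, 1478 and 1397 bp. Lhx1 had 3758 and 3864 bp, Foxc1 3853 and 3020 bp and Tbx2 4031 and 2263 bp, with H3K27me3 over nearly the whole window. Pax2 had 434 and 173 bp beside 20159 and 20188 bp of H3K27me3. H3K4me3 was found at 32 of the 81 in WT_407 and at 22 in WT_409. At 11 of the 12 unsettled genes it was present in WT_407 alone with H3K27me3 in both mice, as at Nkx2-2 (673 and 0 bp), Msx1 (939 and 0 bp), Twist1 (989 and 0 bp) and Neurod1 (780 and 0 bp). This is the opposite order of mice to that of the erythroid and B genes. Over all genes, 274 had H3K27me3 in both mice and H3K4me3 in WT_407 alone, and 72 had it with H3K4me3 in WT_409 alone. The part of the reads needed at a summit, given above, in these differences was not tested.

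Signalling genes also fell mainly under H3K27me3, alone or with H3K4me3. Of 45 Wnt, Bmp, Fgf, Hedgehog and Notch genes, 17 had H3K27me3 alone, 15 both marks, 1 H3K4me3 alone and 12 were unsettled. Over all genes these shares were 6.65%, 12%, 44.4% and 5.67%. At a fold of at least 10, 31 of the 45 had H3K27me3 alone and 7 both marks, and with equal numbers of peaks 38 and 4. Ligands such as Wnt1, Wnt3, Wnt3a, Fgf4, Fgf10, Shh and Ihh had H3K27me3 alone, with 13345 and 13086 bp at Shh. Ptch1, the Hedgehog receptor, had 6352 and 6308 bp of H3K4me3 beside 5208 and 7810 bp of H3K27me3, and Hes1, a Notch target, 4397 and 4874 bp beside 12440 bp in both mice. The Notch ligands Jag1, Jag2, Dll1 and Dll4 all had both marks. Notch2 was the gene with H3K4me3 alone, on 3282 and 3317 bp. Of 30 neuronal channel, receptor and adhesion genes, 19 had H3K27me3 alone, 5 both, 2 neither and 4 were unsettled. At a fold of at least 10, 12 of the 30 had H3K27me3 alone, 4 both and 9 neither, and with equal numbers of peaks 24, 1 and 2. Of 94 potassium channel genes, 37 had H3K27me3 alone and 25 both.

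The Hox genes, which pattern the body axis and of which Hoxa9 and its neighbours also act in blood stem cells, had H3K27me3 alone at 19 of 39, both marks at 15, H3K4me3 alone at 1, and 4 were unsettled. Over all genes these shares were 6.65%, 12%, 44.4% and 5.67%. At a fold of at least 10, 4 Hox genes had both marks and 26 H3K27me3 alone, and with equal numbers of peaks 1 and 35. Of all 21887 genes, these counts were 1007 and 1376 at that fold, and 654 and 3547 with equal numbers of peaks. In the Hoxa cluster, Hoxa9 had H3K4me3 on 6978 and 4621 bp, Hoxa7 on 5434 and 4122 bp and Hoxa3 on 4808 and 4705 bp, each with H3K27me3 on all 10001 bp of the window in both mice. Hoxa2 and Hoxa11 had H3K27me3 alone. In the Hoxb cluster Hoxb4, which expands stem cells when overexpressed, was the gene with H3K4me3 alone, on 4665 and 4186 bp. Its neighbours Hoxb3 and Hoxb5 had both marks. Among the Hoxc genes, Hoxc6 had both marks, with H3K4me3 on 484 and 284 bp, Hoxc9 was unsettled and the others had H3K27me3 alone. Of the Hoxd genes, Hoxd12 and Hoxd13 had both and the others H3K27me3 alone. Of the 39, 17 have no listed start, and windows of neighbours overlap.

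MicroRNA hairpins, among them those of the Hox clusters, differed between copies of a family, so their mature forms are shown, from RefSeq (GRCm38.p6), with the seed (bases 2 to 8) in capitals.
mmu-miR-10a-5p: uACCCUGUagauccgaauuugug
mmu-miR-10b-5p: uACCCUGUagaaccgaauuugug
mmu-miR-196a-5p: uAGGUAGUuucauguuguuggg
mmu-miR-196b-5p: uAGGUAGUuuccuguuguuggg
mmu-miR-9-5p: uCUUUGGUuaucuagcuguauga
mmu-miR-142a-3p: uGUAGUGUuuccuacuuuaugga
mmu-miR-223-3p: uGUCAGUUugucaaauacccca
The pair miR-10a and miR-10b share the seed ACCCUGU. Within 2 kb of the hairpin, Mir10a on chromosome 11 had H3K4me3 alone, on 2407 and 2135 bp, and Mir10b on chromosome 2 had H3K27me3 alone, on 4068 bp in both mice. The miR-196 forms share AGGUAGU. Mir196b had both marks, with 2358 and 1918 bp of H3K4me3 and 4085 bp of H3K27me3 in both mice, whereas Mir196a-1 and Mir196a-2 had H3K27me3 alone. The mature miR-9-5p arises from 3 hairpins, of which Mir9-1 and Mir9-2 had both marks and Mir9-3 H3K27me3 alone. Hairpins known from blood cells, picked after their values were seen, fell in several classes. Mir142 had H3K4me3 alone, on 4064 bp in both mice, and so did Mir223, on 3565 and 4110 bp. The erythroid Mir144 and Mir451a were unsettled, with 0 and 1493 bp of H3K4me3 each and no H3K27me3. Mir125a, Mir125b-1 and Mirlet7e had H3K27me3 alone, and Mir130a had both marks. Of 1005 hairpins, 38 (3.78%) had both marks, 178 (17.7%) H3K4me3 alone, 42 (4.18%) H3K27me3 alone and 703 (70%) neither, and 44 (4.38%) were unsettled. The start of the primary transcript can lie far from a hairpin, so these windows need not hold a promoter.

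Long non-coding RNA genes carried the marks less widely than coding genes, and part of what they carried lay near coding starts. Of 12727, 589 (4.63%) had both marks, 2062 (16.2%) H3K4me3 alone, 675 (5.3%) H3K27me3 alone, 8789 (69.1%) neither and 612 (4.81%) were unsettled. Of the 9422 whose window lay over 5 kb from every coding start, 122 (1.29%) had both marks, 802 (8.51%) H3K4me3 alone, 268 (2.84%) H3K27me3 alone, 7847 (83.3%) neither and 383 (4.06%) were unsettled.

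Most genes of the methyltransferase complexes, PRC2 and the demethylases had H3K4me3 alone, and those of PRC1 were divided between this class and both marks. Over all genes 44.4% had H3K4me3 alone and 12% both marks. Of 16 genes of H3K4 methyltransferase complexes, 14 had H3K4me3 alone, such as Kmt2a (4810 and 4870 bp) and Setd1b (9168 and 9161 bp). The other two, Ash2l and Ncoa6, had no listed peak in their windows, and the annotated start or end need not be the start used in these cells. Of 12 PRC2 genes, 10 had H3K4me3 alone, including the methyltransferase Ezh2 (3545 and 4371 bp), Eed and Suz12. Epop had both marks and Phf19 was unsettled. Of 22 PRC1 genes, 10 had both marks (45.5%) and 12 H3K4me3 alone (54.5%). At a fold of at least 10, 4 had both marks, and with equal numbers of peaks 7. Among the CBX subunits that read H3K27me3, Cbx2 had both marks, with H3K27me3 on 9165 and 7329 bp, Cbx8 on 7203 and 7522 bp, and Cbx6 and Cbx7 had both too. Bmi1, needed for stem cell self-renewal, had 4966 and 4879 bp of H3K4me3 and 4162 and 4844 bp of H3K27me3, and its paralog Pcgf2 had both marks as well. Ring1 and Rnf2, the ubiquitin ligases of the complex, had H3K4me3 alone. Among 11 demethylase genes, 9 had H3K4me3 alone, and the H3K27 demethylase Kdm6b had H3K4me3 on 8138 and 8166 bp and H3K27me3 on 3505 and 2783 bp.

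Cell cycle inhibitors were split in equal numbers in the lists as deposited. Cdkn1a, Cdkn1c, Cdkn2a and Cdkn2b carried both marks and Cdkn1b, Cdkn2c, Cdkn2d and Cdkn3 H3K4me3 alone. Over all genes 12% had both marks and 44.4% H3K4me3 alone, so the second share of the list, 50%, lay near the background. At a fold of at least 10, 3 of the 8 had both marks, 4 H3K4me3 alone and 1 was unsettled. With equal numbers of peaks, 2 had both marks, 4 H3K4me3 alone and 2 H3K27me3 alone. At Cdkn2a, which encodes p16 and p19ARF, H3K27me3 covered 19676 and 19572 bp and H3K4me3 1632 and 1542 bp. At Cdkn1a, the p53 target p21, the lengths were nearly equal, with 2575 and 2611 bp of H3K4me3 and 2322 and 2760 bp of H3K27me3. Imprinted genes were spread over all classes, with 9 of 25 carrying both marks, 5 H3K27me3 alone, 3 H3K4me3 alone and 4 neither. Over all genes these shares were 12%, 6.65%, 44.4% and 31.2%. Of the 25, 2 carried both marks at a fold of at least 10 and 1 with equal numbers of peaks. Grb10 had 1041 and 971 bp of H3K4me3 beside 12492 and 10576 bp of H3K27me3, and Dlk1, Mest and Zdbf2 had H3K27me3 alone. Alleles cannot be told apart in these lists.

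Genes used by all cells showed H3K4me3 alone almost throughout. This was so for 28 of 29 ubiquitously expressed genes and 41 of 42 ribosomal protein genes, against 44.4% of all genes. The exception among the ubiquitously expressed genes was Ywhaz, with no listed peak in its windows, for which the same limit on the annotated start holds. Of 27 interferon-stimulated genes, 23 (85.2%) had H3K4me3 alone, 1 both and 3 were unsettled. Their H3K4me3 was longer in WT_407, with a median of 3467 bp against 2410 bp in WT_409, and Ifit3 had 3054 and 415 bp. Ribosomal protein genes had medians of 3138.5 and 2950 bp.

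At the other end, genes of other organs had neither mark at 24 of 30, for example Alb of the liver, Prm1 of the testis and Ins1 of the pancreas. Of 1110 olfactory receptor genes, 1100 had neither mark, and of 355 vomeronasal receptor genes 354, against 31.2% of all genes. Not all genes of differentiated cells outside blood were without marks, as the neuronal and potassium channel genes above show. Of 44 collagen genes, 17 had H3K27me3 alone, 12 neither, 9 both, 2 H3K4me3 alone and 4 were unsettled. Over all genes these shares were 6.65%, 31.2%, 12%, 44.4% and 5.67%, and the collagen share with neither, 27.3%, lay near the second. Stromal and endothelial genes were spread over all classes, with 6 of 20 carrying both marks, 3 H3K4me3 alone, 2 H3K27me3 alone and 6 neither. Cxcl12, the niche chemokine, had H3K27me3 on 7704 and 7156 bp with 910 and 861 bp of H3K4me3.

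**Figure D5:**
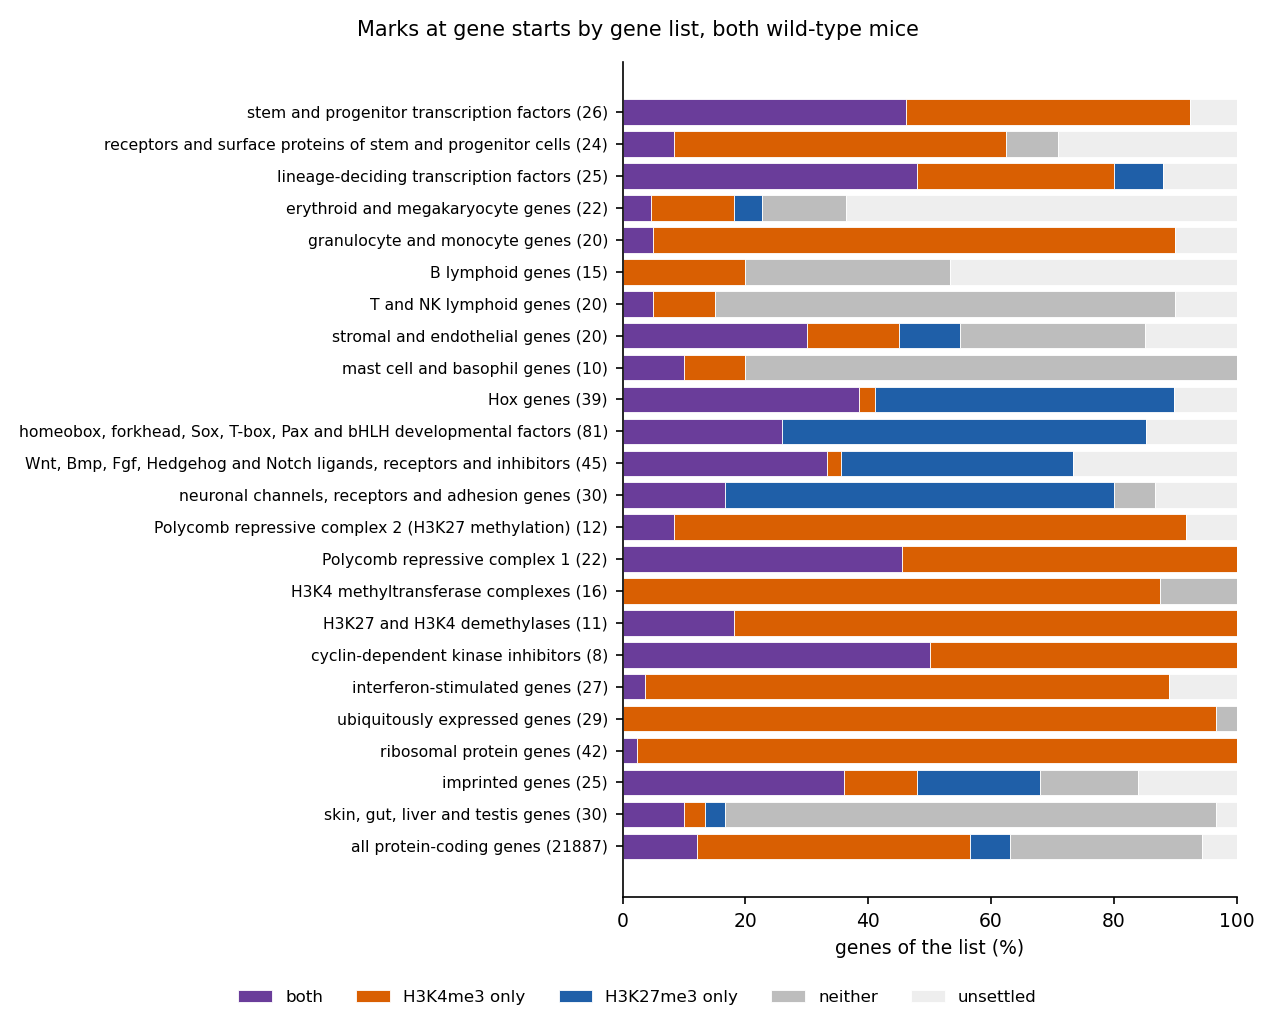
Share of the genes of each list (x axis, %) by class in both WT mice: both marks (purple), H3K4me3 only (orange), H3K27me3 only (blue), neither (grey) and unsettled (light grey), with the number of genes in brackets and all protein-coding genes in the last bar. No gene of the list of developmental factors has H3K4me3 alone, and 41 of 42 ribosomal protein genes do.

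The genes with the longest marks in each class, taken over all 21887, repeated some of these names. Among genes with both marks the first 10, by the lower rank of either mark, were Rara, Gata2, Meis1, Nol4l, Rarg, Pcdh7, Septin5, Hic1, Ccr10 and Cntnap1. All 10 had both marks at a fold of at least 10, but 7 lost this class with equal numbers of peaks. Gata2, Hic1, Ccr10 and Cntnap1 then had H3K27me3 alone, and Rara, Meis1 and Pcdh7 were unsettled. Rara and Rarg encode retinoic acid receptors, and Rara had H3K4me3 on 11730 and 11895 bp and H3K27me3 on 11376 and 12920 bp over 4 listed starts. Ccr10 and Cntnap1 are neighbours whose windows hold the same peaks. The first 10 with H3K4me3 alone were Zbtb7b, Ccnd3, Mbnl1, Runx1, Wfdc21, Gse1, Ncoa4, Map11, Tyrobp and Mgat1, from 12432 and 12550 bp at Zbtb7b to 9584 and 9769 bp at Mgat1. Ccnd3, the D-type cyclin of blood cells, had 12236 and 11850 bp. The first 10 with H3K27me3 alone included Tbx3, Pax6, Wnt10a, Pitx1, Hoxc13, Hoxb9, Hoxc10, Onecut3 and Zic2, each a developmental factor or, for Wnt10a, a signalling ligand. The 10 with H3K4me3 alone and the 10 with H3K27me3 alone all kept their class at a fold of at least 10 and with equal numbers of peaks. Both settings only remove peaks, so the other mark could not appear at these genes. With a window of 5 kb, Gse1 was unsettled and 1 of the 10 with H3K27me3 alone had both marks. With either end of the span of every gene, Gse1 had both marks. Genes with more starts, or with windows at both span ends, have wider windows, which favours them in this order. Of the 10 with H3K27me3 alone, 9 have no listed start, and of the other two groups 3 each, so their class can come from either end of the gene.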

How the data were processed

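Peak lists of 2 marks from 2 WT mice were compared, with those of 2 KO mice for the overlap alone. Each list was called on 1 library. The submitters' processing notes name MACS2, Bowtie2, Trim Galore, FastQC, deepTools and SAMtools without versions, and the build mm10. The sources used here do not give the control of peak calling. In the lists deposited by the authors, the fold is a ratio of summit signal to background, the −log10 columns hold the p-value and q-value, and the score is a whole number per peak. They served to describe, rank and filter peaks within a list. Input libraries were not analysed here.

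Positions came from RefSeq (GRCm38.p6). Listed start sites were used for 17492 genes and either end of the span for 4395 genes with none. A window takes 2 kb each side for classes and 5 kb for lengths, as the union over starts, and 1 bp of peak sufficed. Promoters and profiles used the 14731 genes with 1 listed start. Of the list genes, Ighm, Mx1, Mx2, Rigi and Atp5f1b had no match. Genes named are the 10 with the longest defining mark in each class and members of 23 lists. A few genes that this rule takes in are not reported here. The members and lists were chosen with earlier results of these data known. No test was run over genes. Libraries were compared by exact permutation. The labels do not say that a number marks a mouse, which was inferred from the design. The code of the classification was checked on simulated peaks around genes with 1 start each, where all 200 genes were recovered. Genes with several starts or with span ends were not simulated, so this does not measure how certain the classes of real genes are. Python 3.11.15, numpy 2.4.6, pandas 2.3.3 and scipy 1.17.1 were used. Alternatives were a fold or −log10 q of at least 10, equal peak numbers, other windows, gaps and minimum lengths, each mouse alone and the replicate block.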

Additional observations from a re-analysis of the deposited data

How the results depend on the processing

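Of 136 recomputed values, 110 kept their direction and moved by less than the spread between mice (counts by at most 1.5 times, while comparisons of groups were judged by direction alone). Some of the 110 could not differ from the main value. These were the differences and gene classes under the replicate block, and the exclusive regions when shared regions had to share bases. The number of genes with both marks was 1007 with a deposited fold of at least 10 and 654 with the strongest 9838 peaks of each list, where 3547 genes had H3K27me3 alone. At a fold of at least 10, 1031 regions had both marks and 1818 H3K27me3 alone, and the overlap was 6.00% of H3K4me3 bases and 8.97% of H3K27me3 bases with a Jaccard index of 0.0373. With equal numbers of peaks the overlap was 3.88% and 2.98% with an index of 0.0171, and with a −log10 q of at least 10 it was 10.03% of H3K4me3 bases with an index of 0.0569. When a mark had to cover at least 50% of a region, 327 regions had both marks and 6136 H3K27me3 alone. Equal numbers remove mostly H3K4me3 peaks, and the fold limit removes more of the H3K27me3 peaks.

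From a single mouse, regions with H3K27me3 alone numbered 6145 to 8188, since a class then needs fewer libraries. The difference in median H3K27me3 length, genes with both marks minus genes with H3K27me3 alone, ran from -93.5 to 15.0 bp between these fits and so has no stable sign. The median CpG ratio of genes with H3K4me3 alone was 0.787 to 0.788 from a single mouse and 0.794 on autosomes, and that of genes with neither mark 0.160 to 0.161 and 0.156. The difference in H3K4me3 length was -1173.5 bp with a window of 10 kb, and 75.6% of overlapping H3K4me3 peaks lay inside H3K27me3 when gaps of up to 1 kb were joined.

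With the replicate block, the paired exact test of 2 mice gave p = 0.5, the smallest it can give, for peak number (a difference of 14828), covered length (4.76 Mb) and median width (-948.75 bp), and classes called within each mouse gave the same 2637 genes with both marks by construction. Without it, pairing across mice gave an overlap of 10.5% of H3K4me3 bases. Of 610 named or listed genes, 449 kept their class at a fold of at least 10 and 413 with equal numbers of peaks. The window and anchor settings kept 563 to 580. Limiting genes to those with a listed start was chosen after seeing the data and gave 1959 with both marks. Read totals are unknown, and 2 mice limit every comparison.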
